A study of Homo sapiens with 4 samples.

Results

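The genes described here charge transfer RNAs with amino acids or make serine, glycine, one-carbon units and asparagine, and they were measured in Hs683 cells, a human glioma line. Members were taken by gene symbol: every symbol made of 1 letter followed by ARS, with or without a closing 1 or 2, and EPRS1, AIMP1, AIMP2, PHGDH, PSAT1, PSPH, SHMT1, SHMT2, MTHFD2 and ASNS. Of 44 such symbols, 36 had a probe set (a group of short probes for the same transcript) with a single gene symbol, out of 17716 genes in all. These were 13 cytosolic synthetases, 15 mitochondrial synthetases, GARS1 and KARS1, which serve both compartments, and 6 enzymes of serine, glycine, one-carbon and asparagine synthesis. MARS1, QARS1, SHMT1 and TARS2 had only probe sets that the annotation gives to several genes and are not reported, and AIMP1 and AIMP2, among others, were not analysed here.

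Total RNA was read on 4 Affymetrix arrays. All cells carried a knockdown of QK, the gene now named QKI. The cells of 2 arrays had been given miR-20a and those of the other 2 miR-NT, a scrambled control that targets nothing. The labels do not say how the knockdown was made, whether the cells came from 1 clone or whether the replicates were separate cultures, so the tests measure the spread between arrays, which may be technical. Values are log2 signals. A difference is always miR-20a minus miR-NT on that scale, so that −1 is a halving of the signal. The levels of different probe sets cannot be compared with each other.

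An aminoacyl-tRNA synthetase joins 1 amino acid to its transfer RNA, the step that fixes which amino acid a codon stands for. Cytosol and mitochondria use separate enzymes for most amino acids, all encoded in the nucleus. Serine is made from a glycolytic intermediate by PHGDH, PSAT1 and PSPH in turn; SHMT enzymes split it into glycine and a one-carbon unit, MTHFD2 carries that unit on in mitochondria, and ASNS makes asparagine. The transcription factor ATF4, which is made when amino acids run short or the endoplasmic reticulum is under stress, induces many cytosolic synthetases together with PHGDH, PSAT1, PSPH, SHMT2, MTHFD2 and ASNS.

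The sequences below show the microRNA that was added and the places where a gene of this group carries the letters through which ATF4 is known to act. The mature miR-20a (hsa-miR-20a-5p, RefSeq, GRCh38.p14, chr13:91351072-91351094, plus strand) is printed with its seed, bases 2 to 8, in capitals; the seed is the part that pairs with target transcripts.
hsa-miR-20a-5p: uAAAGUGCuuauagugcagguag

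The C/EBP-ATF response element was searched as TGATGNAA, on both strands, in the 250 bases before the start of each gene in the RefSeq promoter table (GRCh38.p14). Of the 36 members 29 were in that table; AARS2, LARS1, PSPH, SHMT2, VARS1, VARS2 and YARS1 were not. A match was found in 5 of the 29 members (17.2%) and in 1061 of all 27305 genes of the table (3.89%). With the 50 bases after the start included, 8 of the 29 members had a match (27.6%). All genes were not counted in that wider window, and matches found only there are not printed. The 5 windows are printed 5′ to 3′ on the gene's own strand, with the match in capitals; in AARS1, IARS1 and GARS1 the element lies on the opposite strand and so appears as its reverse complement.
AARS1 (chr16:70289666-70289713, minus strand): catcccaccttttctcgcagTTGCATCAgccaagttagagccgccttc
IARS1 (chr9:92293698-92293730, minus strand): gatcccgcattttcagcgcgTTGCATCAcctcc
GARS1 (chr7:30594825-30594872, plus strand): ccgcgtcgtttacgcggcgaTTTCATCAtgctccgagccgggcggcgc
YARS2 (chr12:32756067-32756114, minus strand): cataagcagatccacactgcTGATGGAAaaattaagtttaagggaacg
ASNS (chr7:97872449-97872496, minus strand): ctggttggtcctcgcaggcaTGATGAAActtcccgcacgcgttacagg

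The match began 187, 13, 33, 197 and 68 bases before the start in that order. In ASNS it is the element through which the gene is known to respond to amino acid shortage. The 4 of these genes that could be tested differed little between the groups, with log2 fold changes of −0.09 for AARS1, −0.10 for IARS1, −0.09 for GARS1 and 0.12 for YARS2. No match lay in the window before the start of PSAT1 or CARS1, the members with the largest differences. More members had a match once the bases after the start were included, and whether PSAT1 or CARS1 was among them is not given. Whether the element bears on any of these differences was not tested. A match describes letters in a window and does not show that a factor binds there.

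Facts that bear on all members come first. Signal of the ACTB 5′ control probe set, commonly used to judge how intact the RNA and its labelling were, was 12.78 and 12.66 under miR-NT and 11.59 and 10.43 under miR-20a, so that it was lowest on miR-20a replicate 2. The GAPDH 5′ control ran the same way, from 13.81 to 13.89 with miR-NT and from 12.30 to 13.17 with miR-20a. QKI measured 8.14 and 7.92 under miR-NT and 7.52 and 7.08 under miR-20a; arrays without the knockdown were not analysed here, so the knockdown itself was not checked. Of the glial markers VIM was bright (14.02 to 14.32), while GFAP, S100B, NES, OLIG1 and OLIG2 were among the dimmest 30% of genes, which were left out of all tests. The 6 glial markers tested had a median log2 fold change of 0.06, with CD44, VIM and SOX2 at −0.87, −0.19 and −0.12 and PDGFRA, CSPG4 and MBP at 0.37, 0.36 and 0.23. The summed linear signal of all 11 measured, in which VIM is much the brightest, was 22336 to 23173 with miR-NT and 18124 to 20512 with miR-20a. Of 6 immune markers 4 were measured, with a summed linear signal of 421 to 422 with miR-NT and 458 to 509 with miR-20a. The defining marker PTPRC was among the dimmest genes. CD3E, AIF1 and ITGAM were bright enough to be tested, with log2 fold changes of 0.28, 0.20 and 0.07. The summed signal of 7 epithelial and endothelial markers, in which KRT18 is much the brightest, was 6398 to 6913 with miR-NT and 6168 to 6986 with miR-20a. EPCAM, CDH1, KRT19, CDH5 and VWF of that list were among the dimmest genes, while PECAM1 and KRT18 were tested, at 0.30 and −0.02. For 5 neuronal markers, in which TUBB3 is much the brightest, the sum was 7150 to 7558 with miR-NT and 5170 to 6923 with miR-20a. TUBB3 and SNAP25 were at −0.32 and −0.21, and RBFOX3, SYP and the untested NEFL at 0.32, 0.21 and 0.35. What these differences contribute to the values below was not tested.

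With 34 members tested, none passed an adjusted p of 0.05 in limma over all 12401 genes, where 1 gene did (0.00806%). The smallest adjusted p among members were 0.0727 for CARS1 and 0.0904 for PSAT1, both lower with miR-20a. At an unadjusted p under 0.05, 5 members were lower and 3 higher, or 14.7% and 8.82%, beside 13.2% and 5.82% of all genes tested. Without overlap between the groups, 10 members were lower and 13 higher, or 29.4% and 38.2%, beside 31.1% and 25.1% of all genes. The share that was lower without overlap was thus near that of all genes. After quantile normalization, 8 members were lower and 15 higher without overlap, beside 26.7% and 33.5% of all genes; at an unadjusted p under 0.05 it was 5 members lower and 7 higher, beside 11.7% and 12.8%. The median log2 fold change of the 34 members was −0.08, beside −0.02 for all genes, and single members ranged from −0.91 to 0.43.

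**Figure D1:**
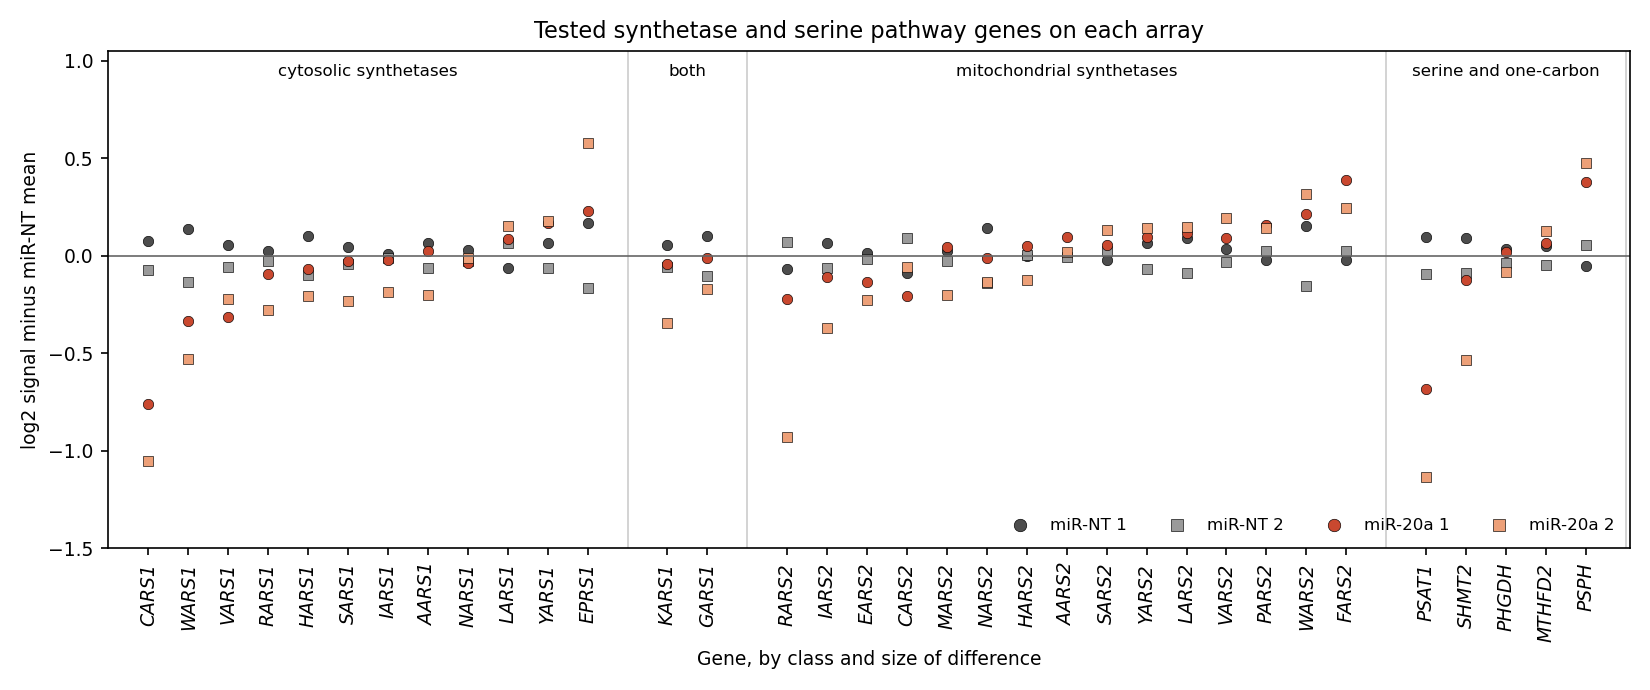
The log2 signal of each of the 34 tested members on each of the 4 arrays, minus the gene's own mean with miR-NT, with genes ordered within each class by the difference between groups. Most members lie within 0.5 of 0 on every array, and CARS1, RARS2 and PSAT1 reach down to −1.05, −0.93 and −1.13 on miR-20a replicate 2.

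Among the cytosolic synthetases the differences centred slightly below 0. The median of the 12 tested was −0.12, 9 below 0 and 3 above, with 5 lower and 3 higher without overlap (the lower ones 41.7%; over all genes 31.1% were lower and 25.1% higher). After quantile normalization 6 were below 0 and 6 above. Of the 12, 3 were then lower and 4 higher without overlap, beside 26.7% and 33.5% of all genes. Both shares were thus near those of all genes. CARS1, which charges cysteine, had the largest difference. It measured 7.17 and 7.02 under miR-NT and 6.34 and 6.04 under miR-20a, so the groups were well apart. That is 7.10 ± 0.11 against 6.19 ± 0.21 (SD, n = 2 each), a 1.87-fold lower signal (log2 fold change −0.91, SE 0.13, limma adjusted p = 0.0727). CARS1 passed after each array was centred on its median (−0.90, limma adjusted p = 0.0494) and with an intensity trend and robust prior (−0.91, limma adjusted p = 0.0491). Its value was −1.05 without miR-20a replicate 1 and −0.76 without replicate 2. Without miR-NT replicate 1 or 2 it was −0.83 or −0.98. A lone array in these fits is assumed to vary like the other group. Adjusting for ACTB 5′ gave −0.45 (SE 0.25).

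WARS1, which charges tryptophan and is also known as an interferon-induced gene, measured 9.19 and 8.92 under miR-NT and 8.72 and 8.52 under miR-20a. Both miR-20a values lay below the miR-NT values, at 1.35-fold lower signal (log2 fold change −0.43, SE 0.13, limma adjusted p = 0.168). The value was −0.10 with the ACTB 5′ covariate. VARS1, which charges valine, measured 7.33 and 7.22 under miR-NT and 6.96 and 7.05 under miR-20a, with a log2 fold change of −0.27 (SE 0.10, limma adjusted p = 0.227). Unlike CARS1 and WARS1, it was not lower on the miR-20a array with the lower ACTB 5′ signal, and its value with the covariate was −0.39.

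EPRS1, which charges glutamate and proline and belongs to the large multisynthetase complex of the cytosol, had the largest positive difference of any synthetase. It measured 7.14 and 6.81 under miR-NT and 7.20 and 7.56 under miR-20a. The groups nearly touched, since the lower miR-20a value was only just above the higher miR-NT value. The log2 fold change of 0.40 (SE 0.16) did not pass (limma adjusted p = 0.237), and it was −0.07 with the ACTB 5′ covariate. YARS1, which charges tyrosine, measured 11.07 and 10.95 under miR-NT and 11.18 and 11.19 under miR-20a, a difference of 0.17 (SE 0.10, limma adjusted p = 0.365).

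Genes of the multisynthetase complex did not share a direction. EPRS1 and LARS1, for leucine, were at 0.40 and 0.12, while IARS1, for isoleucine, RARS1, for arginine, and KARS1, for lysine, were at −0.10, −0.19 and −0.19. Of these 5 genes 3 were lower and 2 higher, none past the threshold. GARS1, for glycine, which like KARS1 works in cytosol and mitochondria, was at −0.09 (SE 0.12) with overlapping groups. The other cytosolic synthetases, HARS1, SARS1, AARS1 and NARS1, ranged from −0.14 to −0.02 and overlapped between groups. The TARS1 probe set was among the dimmest genes and untested, at 4.93 and 5.10 under miR-NT and 5.12 and 5.30 under miR-20a.

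The mitochondrial synthetases centred slightly above 0. Of the 15, all of them tested, 8 were above 0 and 7 below, with a median of 0.06; 8 were higher and 3 lower without overlap, the higher ones 53.3% of the class beside 25.1% of all genes. After quantile normalization 8 were higher and 3 lower without overlap, beside 33.5% and 26.7% of all genes. At an unadjusted limma p under 0.05, 1 was higher and 1 lower (6.67% each), beside 5.82% and 13.2% of all genes. After quantile normalization 3 were higher and 1 lower at that p (20% and 6.67%), beside 12.8% and 11.7%. FARS2, which charges phenylalanine, measured 7.80 and 7.85 under miR-NT and 8.21 and 8.07 under miR-20a. All miR-20a values lay above the miR-NT values, by 1.24-fold (log2 fold change 0.31, SE 0.10, limma adjusted p = 0.189), and the value was 0.52 with the ACTB 5′ covariate. WARS2, for tryptophan, measured 6.83 and 6.52 under miR-NT and 6.89 and 6.99 under miR-20a (log2 fold change 0.27, SE 0.13, limma adjusted p = 0.294). PARS2, for proline, measured 7.09 and 7.14 under miR-NT and 7.27 and 7.26 under miR-20a (0.15, SE 0.09, limma adjusted p = 0.394).

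RARS2, for arginine, was the mitochondrial member with the largest difference and the widest spread. It measured 7.51 and 7.65 under miR-NT and 7.35 and 6.65 under miR-20a, so most of the gap came from miR-20a replicate 2. The log2 fold change was −0.58 (SE 0.21, limma adjusted p = 0.216). It was −0.22 without miR-20a replicate 2 and −0.93 without replicate 1, and it turned to 0.44 with the ACTB 5′ covariate. IARS2, for isoleucine, and EARS2, for glutamate, were lower without overlap at −0.24 and −0.18. The other 9 mitochondrial members lay between −0.13 for CARS2 and 0.14 for VARS2.

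**Figure D2:**
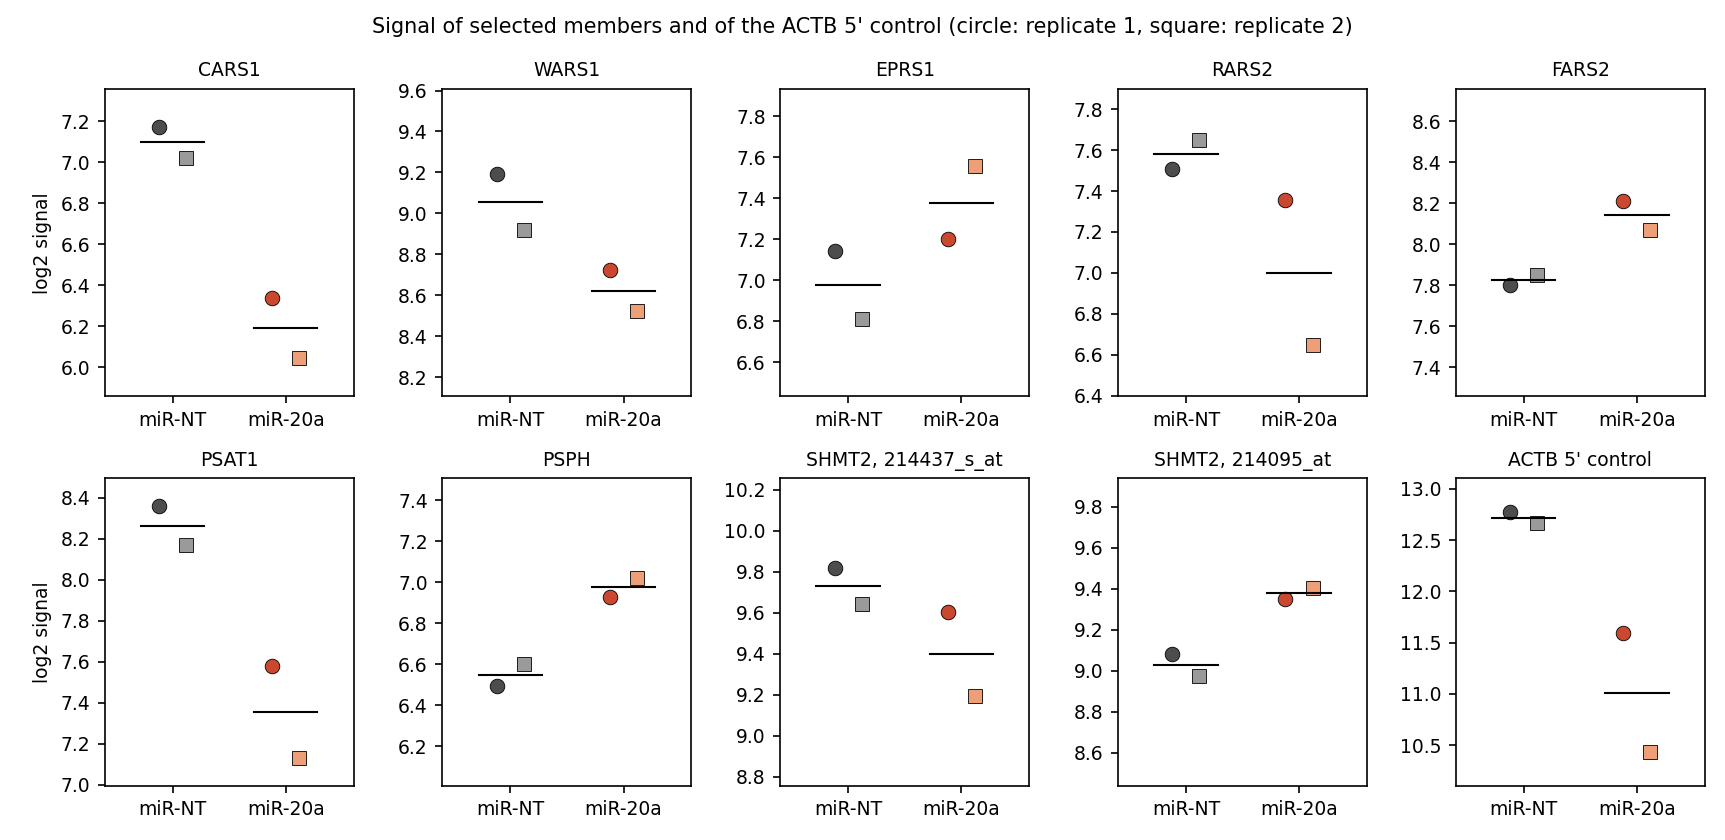
The log2 signal of selected members and of the ACTB 5′ control on the 4 arrays, with circles for replicate 1, squares for replicate 2 and a line at each group's mean. The vertical axes span 1.5 log2 units, and 3 for ACTB 5′; miR-20a replicate 2 is the lowest point for CARS1, WARS1, RARS2, PSAT1, ACTB 5′ and the brighter SHMT2 probe set, and the highest for EPRS1, PSPH and the dimmer SHMT2 probe set.

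For 11 amino acids both partners were tested, which sets the compartments side by side. The cytosolic enzyme had the lower log2 fold change in 7 of the 11 pairs, and the median difference between partners was −0.10. The gap was widest for cysteine (CARS1 −0.91, CARS2 −0.13), tryptophan (WARS1 −0.43, WARS2 0.27) and valine (VARS1 −0.27, VARS2 0.14), and it ran the other way for arginine (RARS1 −0.19, RARS2 −0.58) and isoleucine (IARS1 −0.10, IARS2 −0.24). Leucine partners differed by −0.01, and asparagine and tyrosine partners by 0.05 each. Adjusted for ACTB 5′, the partners differed by −0.08 for cysteine, −0.26 for tryptophan and −0.39 for valine. The sign turned to negative for arginine (0.39 to −0.34), isoleucine (0.14 to −0.02) and asparagine (0.05 to −0.20). It turned to positive for serine (−0.22 to 0.20) and alanine (−0.15 to 0.09). Across the alternatives the cytosolic enzyme was lower in 6 to 8 of 11 pairs, and in 6 of 10 with the dimmest 50% of genes left out. Quantile normalization moved the cytosolic median to 0.002 and the mitochondrial median to 0.11, and the ACTB 5′ covariate moved them to 0.05 and 0.15, where all genes stood at 0.03 and 0.05. The mitochondrial median was thus above the cytosolic one in those fits too, but neither class was called and their difference was not tested. The classes also differed in brightness, with a median log2 signal of 10.42 for the tested cytosolic and 7.98 for the mitochondrial synthetases. Over all genes the median log2 fold change was 0.003 with no filter on dim genes and −0.04 with the dimmest 50% left out. The part of brightness in the compartment difference was not tested.

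**Figure D3:**
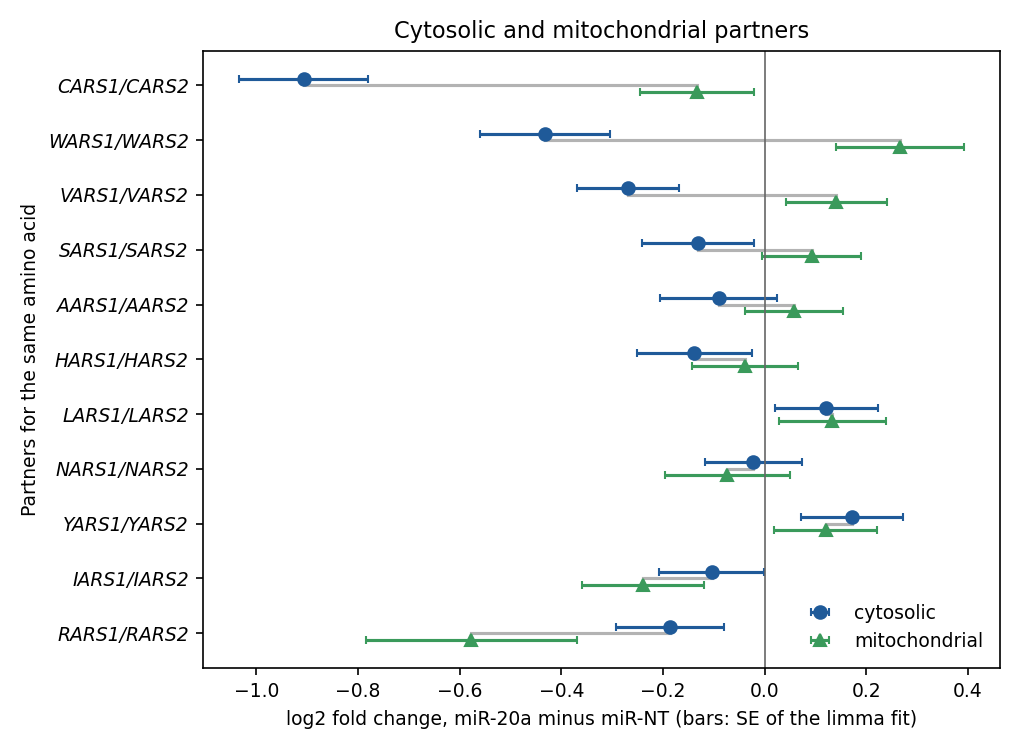
The log2 fold change (miR-20a minus miR-NT) of cytosolic (circles) and mitochondrial (triangles) synthetases for the same amino acid, with the standard error of the limma fit as bars. The bars of the partners lie apart for CARS1 and CARS2, WARS1 and WARS2, VARS1 and VARS2, SARS1 and SARS2, and RARS1 and RARS2.

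The 3 enzymes of serine synthesis, which act in sequence, did not share a direction. PSAT1, the transaminase of the middle step, was low with miR-20a. It measured 8.36 and 8.17 under miR-NT and 7.58 and 7.13 under miR-20a, or 8.26 ± 0.14 against 7.36 ± 0.32 (SD, n = 2 each). Both miR-20a arrays were well below both miR-NT arrays, and replicate 2 was the lower. The 1.88-fold difference (log2 fold change −0.91, SE 0.16) did not pass over all genes (limma adjusted p = 0.0904). It was −0.68 without miR-20a replicate 2 and −1.13 without replicate 1. With the ACTB 5′ covariate it was −0.23 (SE 0.25).

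PSPH, the phosphatase of the last step, measured 6.49 and 6.60 under miR-NT and 6.93 and 7.02 under miR-20a. Here the replicates lay close together and the groups apart, at 1.34-fold higher signal with miR-20a (log2 fold change 0.43, SE 0.10, limma adjusted p = 0.122). It stayed above 0 under every alternative, from 0.27 with the ACTB 5′ covariate to 0.48. Its probe set, like that of LARS1, carries the suffix that Affymetrix gives to sets whose probes can also match other transcripts, and PSPH has a close pseudogene copy, so the value is uncertain. PHGDH, which starts the pathway, had overlapping groups: 9.65 and 9.58 under miR-NT and 9.64 and 9.54 under miR-20a (log2 fold change −0.03, SE 0.10, limma adjusted p = 0.861).

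SHMT2, the mitochondrial serine hydroxymethyltransferase, was read by 2 probe sets that pointed in opposite directions. The brighter one measured 9.82 and 9.64 under miR-NT and 9.61 and 9.19 under miR-20a (log2 fold change −0.33, SE 0.15, limma adjusted p = 0.278). The dimmer one measured 9.08 and 8.97 under miR-NT and 9.35 and 9.41 under miR-20a, a difference of 0.35 (SE 0.10, limma adjusted p = 0.159 when each probe set was tested on its own). In both the groups did not overlap, so the direction for SHMT2 depends on the probe set. Where in the transcript each lies was not established. The brighter set also turned to 0.30 with the ACTB 5′ covariate.

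MTHFD2, the mitochondrial folate enzyme downstream of SHMT2, measured 11.16 and 11.07 under miR-NT and 11.18 and 11.24 under miR-20a, a difference of 0.09 (SE 0.10, limma adjusted p = 0.584). The ASNS probe set was dim and untested, at 4.05 and 4.01 under miR-NT and 3.97 and 3.98 under miR-20a, so that no change of asparagine synthetase could be read from it. Over the 5 tested enzymes of this class the median was −0.03, with 3 below 0 and 2 above.

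The neighbouring genes of these pathways were read from lists and none passed over all genes. Of 10 measured genes for other synthetases, related transfer RNA enzymes and LARP4, an RNA-binding protein that is neither, 8 were tested, with a median of 0.06, 3 below 0 and 5 above. FARSA, a subunit of the cytosolic phenylalanine synthetase, measured 9.74 and 9.52 under miR-NT and 9.32 and 8.71 under miR-20a (log2 fold change −0.62, SE 0.19, limma adjusted p = 0.178). It was thus opposite in sign to FARS2, its mitochondrial counterpart, and was 0.31 with the ACTB 5′ covariate. QRSL1, a subunit of the amidotransferase that makes mitochondrial glutaminyl-tRNA, was at 0.32 (SE 0.11, limma adjusted p = 0.204). LARP4 and DTD1 were at −0.24 and 0.20. FARSB and EEF1E1 were not analysed here.

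Folate and one-carbon genes had a median of −0.06 over 19 tested, 11 below 0 and 8 above. Thymidylate synthase TYMS, which uses a folate one-carbon unit, was at −1.07 (SE 0.19), the folate carrier SLC19A1 at −0.71 (SE 0.15) and the methionine adenosyltransferase MAT2A at −0.35 (SE 0.12), with limma adjusted p of 0.0949, 0.101 and 0.201. With the ACTB 5′ covariate they were at −0.12, −0.22 and −0.0039. The highest-ranked positive values were 0.21 for MTHFD2L, 0.18 for CBS and 0.17 for GLDC. Genes for making other amino acids had a median of −0.10 over 14 tested, 10 below 0 and 4 above. The lowest was ALDH18A1, the first enzyme of proline synthesis, at −0.72 (SE 0.16, limma adjusted p = 0.116), followed in p by GLUD1 at −0.34 and GOT1 at −0.27, and GLUL, BCAT1 and PYCR3 were at 0.22, 0.26 and 0.08. The covariate brought ALDH18A1, GLUD1 and GOT1 to −0.02, −0.07 and 0.01.

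The list of ATF4 and its regulators and targets had a median of −0.11 over 26 tested, 19 below 0 and 7 above. ATF4 itself measured 11.49 and 11.43 under miR-NT and 11.48 and 11.33 under miR-20a, with overlapping groups (log2 fold change −0.06, SE 0.10, limma adjusted p = 0.745). DDIT3 and CHAC1, which ATF4 induces and which were chosen after their values were seen, were at 0.03 and 0.01. Smallest in p were TRIB3, a pseudokinase induced by ATF4, at −0.56 (SE 0.15, limma adjusted p = 0.152), and the amino acid carriers SLC38A2 and SLC1A5, at −0.42 (SE 0.13) and −0.41 (SE 0.14). On the positive side SLC1A4 and EIF2AK4 were at 0.20 and 0.17. The groups did not overlap in 11 lower and 4 higher genes of this list (42.3% and 15.4%, beside 31.1% and 25.1% of all genes). With the ACTB 5′ covariate TRIB3, SLC38A2 and SLC1A5 were at 0.10, 0.09 and 0.22.

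The ACTB 5′ signal moved with the groups and within the miR-20a pair, so each value was also fitted with it as a covariate, which leaves 1 residual degree of freedom. Of the 34 members 21 were below 0 without the covariate and 9 with it, and the standard error was 0.25 for every member. CARS1, VARS1, CARS2 and PSAT1 were the lowest in that fit, at −0.45, −0.39, −0.38 and −0.23, and FARS2 the highest at 0.52. RARS2, SHMT2, KARS1 and AARS1 were among those that went from below to above 0, while EPRS1 and SARS2 went the other way. The smallest limma adjusted p of any member in that fit was 0.684. Between the miR-20a arrays, replicate 2 differed from replicate 1 by −0.71 for RARS2, −0.45 for PSAT1, −0.41 for SHMT2, −0.29 for CARS1 and 0.35 for EPRS1, beside a median of −0.11 for the 34 members and −0.04 for all genes. Between the miR-NT arrays the same medians were −0.09 and −0.06. Because the ACTB 5′ signal moved with the groups, this fit cannot tell RNA or labelling quality apart from miR-20a. The part of RNA or labelling quality in these differences was not tested.

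**Figure D4:**
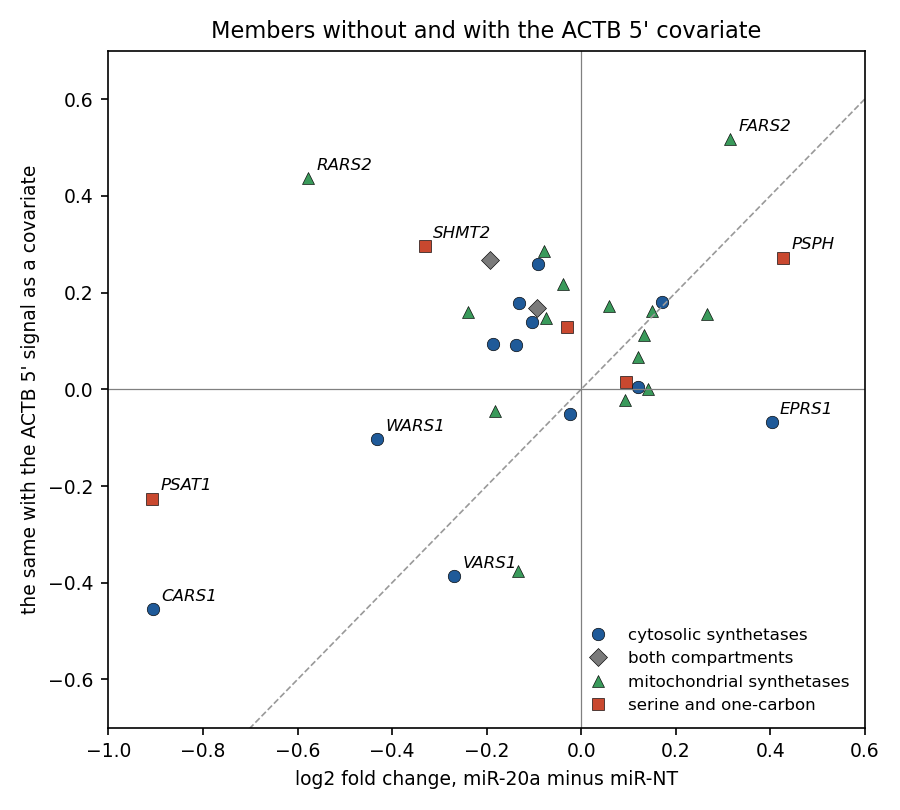
The log2 fold change of each of the 34 tested members (horizontal) against the same value adjusted for the ACTB 5′ control (vertical), by class; the dashed line marks equal values. CARS1 and PSAT1 lie below 0 on both axes and nearer to 0 with the covariate, while RARS2 goes from −0.58 to 0.44.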

How the data were processed

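The 4 arrays of QK-knockdown Hs683 cells were 2 with miR-20a and 2 with miR-NT. The authors deposited 1 value per probe set on each array, taken from its range to be a log2 signal. Of tools, the submitters' processing notes list only affy (R), without a version; how the signals were summarised, background-corrected and normalized is not given in the sources used here. Gene symbols came from the platform annotation and were updated by identifier from the RefSeq gene table (18036 matched). Of 20323 probe sets 18060 had 1 gene symbol, 886 several, 1374 none, and 3 were controls. Per gene the probe set with the highest mean was used. The dimmest 30% of genes (5315) were left out, which left 12401.

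The test was lmFit with eBayes from limma 3.58.1 (R 4.3.3; two-sided, no covariate, 2 residual and 5.53 prior degrees of freedom), with Benjamini-Hochberg adjustment over all genes tested and a threshold of 0.05. Standard errors are those of this fit. With 2 against 2 arrays the smallest exact permutation p is 0.333, so no such test was used. Gene lists are described by counts and medians with no test.

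Values of every array are given for members with an absolute log2 fold change of 0.5 or more, the 6 with the smallest p in each direction, and the serine and asparagine enzymes. Other lists give up to 3 genes with the smallest p; ATF4, DDIT3 and CHAC1 were chosen after their values were seen. Members and lists were chosen with earlier results of these data known. Alternatives were quantile normalization, median centring, other filters, eBayes with trend and robust settings, averaging all probe sets of a gene, the replicate number as a block, adjustment for the ACTB 5′ signal and leaving out each array. The test of each probe set on its own was added after seeing the data.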

Additional observations from a re-analysis of the deposited data

How the results depend on the processing

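No member passed in the fit reported above, after quantile normalization, with either other filter on dim genes, with a gene's probe sets averaged or with the ACTB 5′ covariate. With the replicate number as a replicate block, 0 genes and 0 members passed, where same-numbered arrays share only a number (correlation of their deviations 0.267); the smallest adjusted p of a member was then 0.139. After median centring 1 member passed of 47 genes and with an intensity trend 1 of 24, in both cases CARS1. Counts from fits with 1 array left out are not read as results, since the lone array is assumed to vary like the other group. The highest counts of members and of all genes came from the same fit, without miR-20a replicate 1, and were not compared by a test. The count over all genes was 5 after quantile normalization, 4 with the dimmest 50% left out and 6 with the ACTB 5′ covariate, against 1. With 1 array left out it ranged from 0 to 1869 genes and from 0 to 7 members. The 7 were CARS1, EPRS1, PSAT1, PSPH, RARS2, SHMT2 and WARS1, without miR-20a replicate 1; without miR-20a replicate 2 CARS1 and PSAT1 passed, of 260 genes.

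The cytosolic median of −0.12 was 0.0018 after quantile normalization and 0.048 with the ACTB 5′ covariate. The mitochondrial median of 0.058 was 0.155 with that covariate. With 1 array left out these medians ranged from −0.206 (without miR-20a replicate 1) to −0.032 (without miR-20a replicate 2) and from 0.020 (without miR-20a replicate 1) to 0.066 (without miR-NT replicate 1). The median of the serine and asparagine class, −0.03, was 0.068 after quantile normalization, 0.010 with a gene's probe sets averaged and 0.13 with the covariate, and ranged from −0.081 to 0.021 with 1 array left out. The causes of these moves were not tested. The planned AIMP1 and AIMP2 median was not run, since neither gene was analysed here. With 2 arrays a group, a p above the threshold does not show that a gene was the same in both groups.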
